A study of Mus musculus with 4 samples.

Results

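Lipid-associated macrophages are the macrophages that gather around dying fat cells in obese fat, where they take up released lipid and break it down in lysosomes. They were taken here as a set of 10 genes known to mark them, chosen by symbol, and 9 of the 10 had a named probe set on the array, of 18194 genes measured in all. These were Trem2, Cd9, Gpnmb, Itgax, Lgals3, Mmp12, Atp6v0d2, Cd68 and Ctsk. Spp1, which encodes the secreted phosphoprotein osteopontin, is not analysed here. Where a gene had more than 1 probe set, the brightest over the 4 arrays stood for it.

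The RNA came from epididymal fat, a visceral depot attached to the testis. The C57Bl/6J mice entered the study at 9 weeks of age and ate a high-fat diet with 60% of energy as fat for 21 weeks. High-calcium whey mice received 1.8% calcium with whey protein isolate, and mice on the standard high-fat diet received 0.4% calcium, so that calcium and protein source changed together and both groups were fed a fattening diet. Of 10 mice per diet 2 were profiled, 1 array each as the labels read, and the labels name 2 high-calcium arrays (replicates 1 and 2) and 1 standard array. The remaining array carries wording shared with a label of high-calcium replicate 2, while the stated 2 mice per diet would make it a control, so its diet is open and it entered no test. Whole fat pads were used, with fat cells, vessels, lining and immune cells together, and fewer macrophages cannot be told apart from less of these RNAs per macrophage.

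In textbook terms, Trem2 is a surface receptor that binds lipids and signals through the adaptor Tyrobp, and macrophages lacking it fail to form this state. The cell surface also carries Cd9, a tetraspanin, and Itgax, the integrin chain known as CD11c. Cd68, Gpnmb, Ctsk and Atp6v0d2 belong to the lysosome, while Lgals3 and Mmp12 encode secreted proteins, a galectin and the macrophage elastase. Several are not private to macrophages: Ctsk is made by fibroblasts and osteoclasts, Cd9 by endothelium and other cells, and Lgals3 by epithelia.

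The probe sets were read as deposited, in linear signal, and a gene was called above background on an array where its signal passed the median of that array, which was 0.0963 and 0.0628 for high-calcium replicates 1 and 2, 0.0624 for the standard array and 0.0585 for that of open diet. All 9 genes passed it on all 4 arrays, between 5.12 and 430.4 times the median, as did 10468 genes in all. Control probe sets at the 3' over the 5' end of Gapdh, a check of RNA integrity, stood at -0.44, -0.44, -0.42 and -0.54 on the log2 scale in the same order of arrays, and those of beta-actin at 0.76, 0.65, 0.69 and 0.52, where replicate 1 was the highest. Genes of fat cells were present on every array, with Adipoq at 35.4 and 32.5 on the high-calcium arrays, 34.7 on the standard array and 29.5 on the array of open diet.

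Promoter stretches of 6 of the 9 genes are shown, 80 bases before the start site and 20 from it on, 5′ to 3′. They were taken from RefSeq tables of build GRCm38.p6. Capitals mark TGACTCA, the AP-1 motif, or its reverse complement TGAGTCA.
Gpnmb, chr6:49036438-49036537, plus strand: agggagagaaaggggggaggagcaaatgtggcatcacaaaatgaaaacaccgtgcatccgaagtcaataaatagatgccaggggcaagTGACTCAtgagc
Itgax, chr7:128129470-128129569, plus strand: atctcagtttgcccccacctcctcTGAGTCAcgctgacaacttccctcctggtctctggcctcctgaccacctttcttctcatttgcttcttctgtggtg
Cd68, chr11:69666151-69666250, minus strand: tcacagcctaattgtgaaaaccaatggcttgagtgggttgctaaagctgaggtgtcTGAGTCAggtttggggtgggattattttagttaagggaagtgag
Mmp12, chr9:7347294-7347393, plus strand: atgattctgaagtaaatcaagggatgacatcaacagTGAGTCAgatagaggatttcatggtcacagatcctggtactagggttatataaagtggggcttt
Trem2, chr17:48346321-48346420, plus strand: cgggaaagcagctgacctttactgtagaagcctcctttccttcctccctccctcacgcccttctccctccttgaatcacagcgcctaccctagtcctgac
Ctsk, chr3:95499130-95499229, plus strand: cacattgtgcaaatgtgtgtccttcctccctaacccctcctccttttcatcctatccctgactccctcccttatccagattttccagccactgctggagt
The first 4 hold the motif, and Trem2 and Ctsk do not. Cd9 and Lgals3, whose stretches are not shown, do not hold it either. A link between motifs and signal was not tested. The whole window searched ran from 250 bases before to 50 after the start site. It was at hand for 8 of the 9 genes, of which 4 held the motif on either strand, against 5.20% of 32851 promoter windows, and Cd68 held a second copy 149 bases before its start site. Mmp12 has 2 start sites in the table, and the stretch shown is the one with the motif. CACGTG, the core of the element bound by lysosomal regulators, was in 0 of the 8 genes against 7.15% of windows. CATGTG, a core bound by Mitf, was in 2 genes (Cd9 and Mmp12) against 14.2%, and GAGGAA, the core bound by the macrophage factor PU.1, in 4 genes (Ctsk, Mmp12, Cd68 and Trem2) against 28.3%. The 8 genes had 9 windows, and for each motif as many of these windows as genes held it. These matches describe letters in a window and say nothing of binding.

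All 9 genes had their lowest signal on high-calcium replicate 1. Among the 10468 genes above background, replicate 1 was the lowest array for 25.7%. In each of the 9 genes the gap below the next array was also wider than the span of the other 3 arrays, a pattern held by 11.1% of genes above background. The other high-calcium array, the standard array and the array of open diet lay close together.

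The receptor and surface genes are given first. Trem2 had a signal of 0.493 and 1.66 on the high-calcium arrays, against 1.77 on the standard array, and the array of open diet had 2.09. It was thus 3.58-fold lower on replicate 1 and 0.937 times the standard level on replicate 2. A second, dim probe set of Trem2, above background on 1 array only, went the other way on replicate 1, with 0.114 there and 0.00395 on replicate 2, against 0.0339 on the standard array.

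Itgax had 1.21 and 2.76 on the high-calcium arrays, against 1.99 on the standard array, and 2.46 on the array of open diet. The high-calcium arrays therefore lay on either side of the standard one, at log2 differences of -0.72 and 0.47. Cd9 had 2.53 and 4.90 on the high-calcium arrays, against 4.92 on the standard array, and 4.78 on the array of open diet. Without replicate 1, the 3 remaining arrays differed by only 0.039 on the log2 scale, the tightest of the 9 genes.

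Among the lysosomal genes, Gpnmb, a membrane glycoprotein, had 3.05 and 9.85 on the high-calcium arrays, against 7.29 on the standard array, and 8.68 on the array of open diet. Its dimmer second probe set had the same order of the high-calcium and standard arrays, with log2 differences of -1.45 on replicate 1 and 0.13 on replicate 2. That probe set was above background on 3 arrays only, and its signal of 0.0809 on replicate 1 was below background. Cd68, the glycoprotein used as a general macrophage stain, had 3.71 and 8.92 on the high-calcium arrays, against 7.62 on the standard array, and 8.75 on the array of open diet. Both genes were thus more than 2-fold lower on replicate 1, while on replicate 2 Gpnmb was 1.35-fold and Cd68 1.17-fold higher than on the standard array.

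Ctsk, the protease cathepsin K, had 2.11 and 7.25 on the high-calcium arrays, against 6.29 on the standard array, and 6.11 on the array of open diet. Atp6v0d2, a subunit of the proton pump that acidifies lysosomes, had 1.505 and 5.64 on the high-calcium arrays, against 4.84 on the standard array, and 6.01 on the array of open diet. Its second probe set gave 1.14 and 3.74 against 3.59. Replicate 1 was low for both genes, 2.97-fold for Ctsk and 3.22-fold for Atp6v0d2, and both Atp6v0d2 probe sets showed it.

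Of the secreted products, Mmp12, which cleaves elastin, had 3.69 and 13.1 on the high-calcium arrays, against 10.8 on the standard array, and 13.9 on the array of open diet. It was 2.93-fold lower on replicate 1. Lgals3, galectin-3, had 20.3 and 27.0 on the high-calcium arrays, against 24.0 on the standard array, and 25.0 on the array of open diet. It had the smallest difference of the 9 genes on replicate 1, at 1.18-fold lower, and replicate 2 was 1.13-fold higher.

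**Figure D1:**
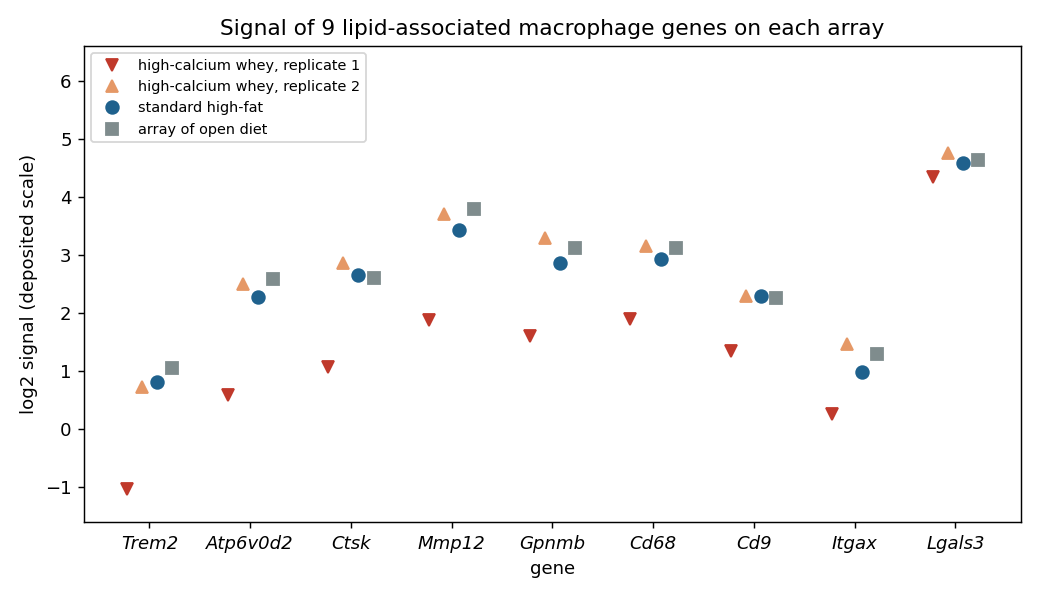
Log2 signal on the deposited scale (y axis) of the 9 genes (x axis, ordered by the difference on replicate 1), 1 point per array. High-calcium replicate 1 is the lowest point for every gene, by 1.75 for Trem2 and by 0.24 for Lgals3, while the other 3 arrays of each gene lie within 0.47.

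By size, 6 of the 9 genes (Trem2, Gpnmb, Mmp12, Atp6v0d2, Cd68 and Ctsk) were at least 2-fold lower on replicate 1 than on the standard array, and 1.27% of the genes above background, 133 genes, were. The median log2 difference of the 9 genes on replicate 1 was -1.26, against 0.064 for genes above background. On replicate 2 the median was 0.22, against 0.0052, and 7 of the 9 genes were higher than on the standard array. Of genes above background, 35.4% were higher on both high-calcium arrays and a further 15.5% on replicate 2 but lower on replicate 1. No member was 1.5-fold away from the standard array on replicate 2, where 8.85% of genes above background were. Both differences share the standard array, of which there is 1.

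**Figure D2:**
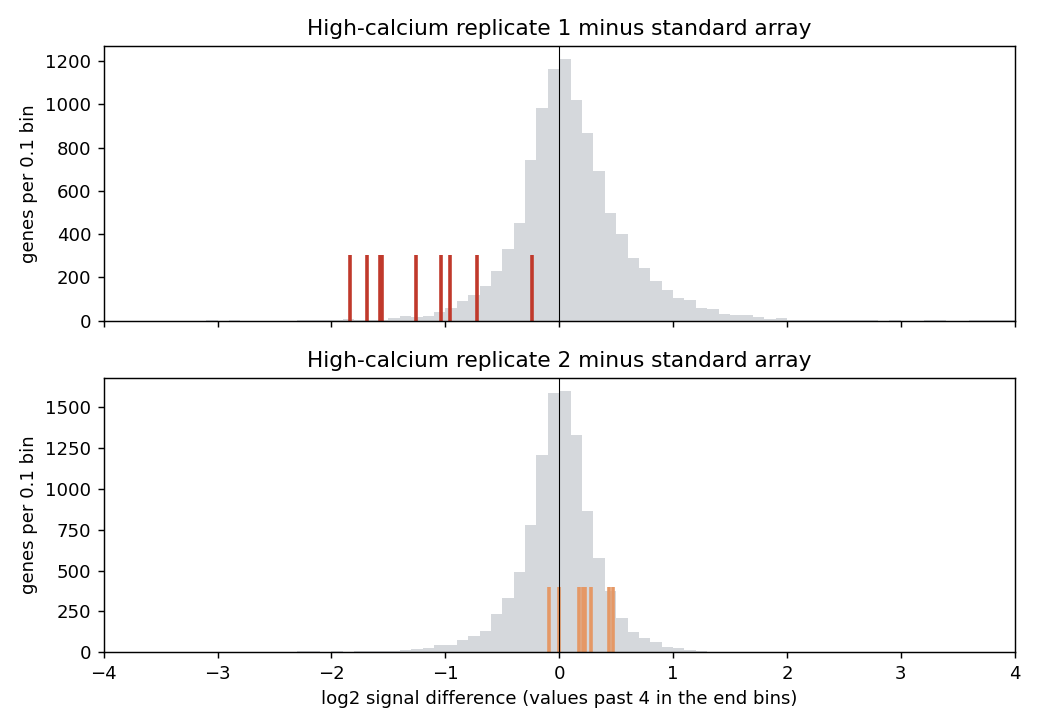
Number of genes above background on all 4 arrays (y axis, bins of 0.1) by log2 signal difference from the standard array (x axis), for high-calcium replicate 1 above and replicate 2 below, with a coloured line for each of the 9 genes. The lines run from -1.84 to -0.24 on replicate 1 and from -0.09 to 0.47 on replicate 2.

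The question put to these arrays was how a high-calcium whey diet alters gene expression in the fat of mice on a high-fat diet. For the 9 genes no difference between the diets passed the test. limma's test over all 18194 genes, adjusted by Benjamini-Hochberg and read at 0.05, called 0 of the 9 genes (adjusted p = 0.9999 for each) and 0 genes in all, 0% higher and 0% lower. At an unadjusted p under 0.05 it gave 0 of the 9 genes and 898 of all genes, and its form with a robust trend of the variance gave 0 of the 9 genes by either p. Trem2 had a log2 signal of -0.15 ± 1.24 (SD, n = 2) with high-calcium whey and of 0.82 on the standard diet, which differ by -0.97 (95% interval -4.80 to 2.86). Cd68 had 2.53 ± 0.89 (SD, n = 2) with high-calcium whey and 2.93 on the standard diet, which differ by -0.40 (95% interval -3.29 to 2.48). The narrowest interval was that of Lgals3, from -1.498 to 1.43 about -0.03, so differences of that size in either direction were not detectable with these arrays.

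The mean difference was negative for all 9 genes, but replicate 1 decided that sign for 7 of them. Only Trem2 and Cd9 were lower on both high-calcium arrays, and Cd9 was at -0.0054 on replicate 2. That is 2 of 9 genes, where 27.1% of genes above background were lower on both, and 0 of 9 were higher on both, where 35.4% were. The other 7 genes were lower on replicate 1 and higher on replicate 2, a pattern of 15.5% of genes above background. The median difference of the 9 genes over both arrays was -0.48, against 0.079 over all genes, and it was 0.22 without replicate 1 and -1.26 without replicate 2.

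Genes that mark macrophages in general were low on the same array. Of 20 general macrophage genes all 20 were lower on replicate 1 than on the standard array, 19 had their lowest signal there, and the median log2 difference was -0.86 on replicate 1 and 0.00073 on replicate 2. limma called 0 of them in either direction. On replicate 2 the list was split, with 10 of the 20 lower than on the standard array and 10 higher. Of genes above background, 27.1% were lower on both high-calcium arrays and 15.5% lower on replicate 1 and higher on replicate 2. Among those lower on both, Ms4a7 differed by -1.37 and -0.19 on replicates 1 and 2, and Fcgr1, an Fc receptor, by -1.35 and -0.53. Aif1, a calcium-binding protein of macrophages and also lower on both, differed by -0.77 and -0.36. Set against the median of the general list, 7 of the 9 genes were further below the standard array on replicate 1, from 0.095 further for Cd9 to 0.98 further for Trem2 on the log2 scale, and Itgax and Lgals3 were less far below. On replicate 2, 7 of the 9 genes lay above that median, by up to 0.47 for Itgax. These shifts rest on 1 array each and have no test.

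Genes that mark resident and alternatively activated macrophages were not low as a list on replicate 1 on the deposited scale. Of 12 such genes 5 were lower there and 3 had their lowest signal there, and the list medians came to 0.030 and 0.13 on replicates 1 and 2, with 0 called by limma. Mgl2, a lectin of these cells, differed by 1.43 and 0.33, and Retnla, a secreted product of alternative activation, by 1.11 and 0.56. Folr2, a folate receptor of resident macrophages, was with the lipid-associated genes, at -1.29 on replicate 1 and 0.14 on replicate 2. The mannose receptor Mrc1 had 3.32 and 4.15 on the high-calcium arrays, against 4.16 on the standard array. The signs on replicate 1 depend on the scaling between arrays. As multiples of the array median, Mrc1 stood at 34.48 on replicate 1 and 66.63 on the standard array. In the same order Folr2 stood at 13.15 and 49.44, Retnla at 162.6 and 116.5, and Mgl2 at 6.145 and 3.526. Only Retnla and Mgl2 of the 12 were higher on replicate 1 by this measure. The difference between this list and the 9 genes was not tested.

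**Figure D3:**
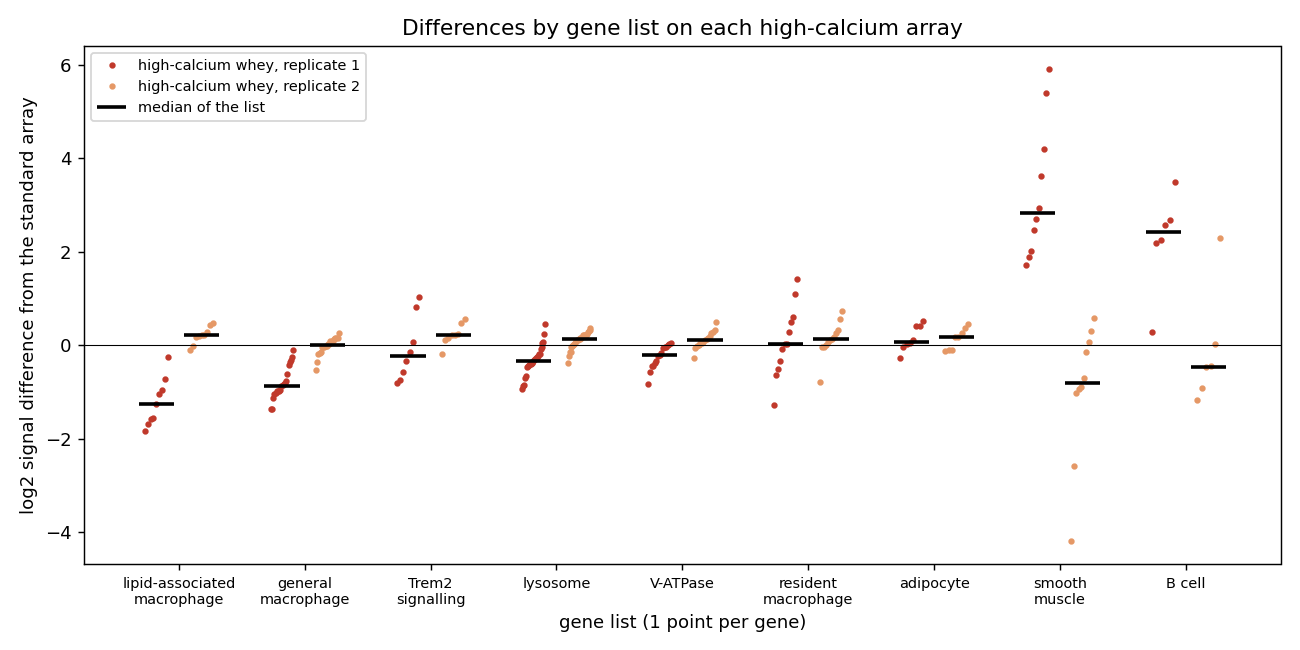
Log2 signal difference from the standard array (y axis) for each measured gene of 9 lists (x axis), with high-calcium replicate 1 left and replicate 2 right within each list and a black bar at the list median. On the deposited scale the medians on replicate 1 are -1.26 for the lipid-associated genes, -0.86 for general macrophage genes, 0.030 for resident macrophage genes and 2.82 for smooth muscle genes.

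Partners of the 9 genes in their pathways are given next. Of genes above background, 27.1% were lower on both high-calcium arrays, 15.5% lower on replicate 1 and higher on replicate 2, and 35.4% higher on both. The counts of this list and of those that follow are to be read beside these shares. Of 8 genes of Trem2 signalling 5 were lower on replicate 1 and 7 were higher on replicate 2, with medians of -0.24 and 0.22 and 0 called, beside -1.26 and 0.22 for the 9 genes. Tyrobp, the adaptor that carries the Trem2 signal, differed by -0.80 and 0.22. Hcst, a related adaptor also found in lymphocytes, differed by 1.04 and 0.23 and Vav1, an exchange factor of blood cells, by 0.82 and 0.22. Hcst and Vav1 were dim, however. On replicate 1 they stood at 2.445 and 2.65 times the array median, against 1.84 and 2.31 times on the standard array.

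Of 26 lysosomal genes outside the 9, 22 were lower on replicate 1, none of them by 2-fold, and 20 were higher on replicate 2, with medians of -0.33 and 0.14. Of the 26, 6 were lower on both high-calcium arrays, where 27.1% of genes above background were. A further 16 were lower on replicate 1 and higher on replicate 2, where 15.5% were. Gla, alpha-galactosidase, differed by -0.93 and -0.15, Neu1, a sialidase, by -0.32 and -0.38, and Gaa, acid alpha-glucosidase, by 0.45 and 0.25. Of 15 other subunits of the proton pump 12 were lower on replicate 1, with medians of -0.21 and 0.12. Atp6v1b2 differed by -0.83 and 0.06, Atp6v1g1 by -0.44 and -0.27, and Atp6v0a1 by 0.01 and 0.51. Atp6v0d2, at -1.69, was below every other measured subunit on replicate 1, and limma called 0 of either list.

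Genes of lipid handling, many of them strong in fat cells too, had medians of -0.14 and 0.062 over 14 genes, with 0 called. Msr1, a scavenger receptor of macrophages, stood out among them at -1.22 on replicate 1 and 0.59 on replicate 2. The cholesterol exporter Abcg1 differed by -0.63 and -0.03, and Cd5l, a secreted macrophage protein, by -0.13 and -0.36. Lpl and Fabp4, a lipase and a fatty acid carrier abundant in fat cells and outside the rule for named genes, were at 0.16 and 0.25 on replicate 1 as deposited. As multiples of the array median, Lpl stood at 383.9 on replicate 1 and 528.8 on the standard array, and Fabp4 at 485.6 and 627.8. Of 12 genes associated with osteoclasts, which share Ctsk and Atp6v0d2 with this macrophage state, 6 were lower on replicate 1, with medians of -0.11 and 0.075 and 0 called. Nfatc1, the osteoclast transcription factor, differed by -1.03 and 0.0035 and Mmp9, a gelatinase, by 1.54 and 0.72. Car2, carbonic anhydrase 2, differed the most of this list's genes above background, at -0.57 on replicate 1 and -2.24 on replicate 2. Both were dim, with Car2 at 1.04 times the array median on replicate 2 and Mmp9 at 1.30 times on the standard array. Of the 12 genes 8 were above background on all 4 arrays, so the count and medians rest partly on dim genes.

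Partners on the cell surface and upstream factors completed the lists. Of 7 osteopontin receptors and integrin partners 6 were lower on replicate 1, with medians of -0.32 and 0.24. Itgb2, the chain that pairs with Itgax, differed by -0.90 and 0.24, in the same directions as Itgax, while Itgb1 was at -0.32 and -0.05 and Itga4 at 0.10 and 0.26. Of 6 tetraspanins and partners of Cd9, 1 was lower on replicate 1 as deposited and the medians were 0.18 and 0.19. Cd9 itself was at -0.96 on replicate 1. As multiples of the array median, each of the 6 was lower on replicate 1 than on the standard array. Cd151 stood at 96.67 and 136.4 in that order, Cd37 at 4.566 and 5.11, and Cd9 at 26.29 and 78.73. Of the 4 MiT/TFE factors, regulators of lysosomal genes, 3 were higher on replicate 1 and lower on replicate 2 as deposited. On that scale the medians of 0.35 and -0.15 had the opposite signs to those of the 9 genes. Tfec differed by 0.64 and -0.89 and Tfe3 by 0.25 and -0.04, whereas Mitf differed by -0.50 and 0.02. The sign on replicate 1 depends on the scaling between arrays. As multiples of the array median, Tfec stood at 2.07 on replicate 1 and 2.06 on the standard array. In the same order Tfe3 stood at 5.65 and 7.335, and Mitf at 10.4 and 22.6. limma called 0 genes of these 3 lists.

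Markers of other cell types also differed on replicate 1, in both directions. Fibroblast genes went the same way as the 9 genes: 8 of 10 were lower on replicate 1 than on the standard array and 8 had their lowest signal there, with list medians of -0.39 and 0.15 on replicates 1 and 2. Pi16, a marker of fibroblast progenitors, differed by -1.54 and 0.34, Lum, the matrix proteoglycan lumican, by -1.06 and -0.03, and Dpp4, a surface peptidase, by 0.86 and 0.16. The summed fibroblast signal was 46.7 and 61.6 on the high-calcium arrays, against 59.0 on the standard array, and 58.9 on the array of open diet.

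Of 10 endothelial genes 9 were lower on replicates 1 and 2 alike, with medians of -0.33 and -0.56, and 1 had its lowest signal on replicate 1. Their summed signal was 4.08 and 3.85 on the high-calcium arrays, against 5.62 on the standard array, and 3.44 on the array of open diet. Of 9 genes of dendritic cells, which also carry Itgax, 6 were lower on replicate 1, with medians of -0.12 and -0.095 and 4 genes above background.

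Smooth muscle, epithelial and lymphocyte markers went the opposite way. All 10 smooth muscle genes were higher on replicate 1 than on the standard array, and their summed signal was 78.4 and 11.6 on the high-calcium arrays, against 13.1 on the standard array, and 10.0 on the array of open diet. Myh11, the smooth muscle myosin, differed by 4.20 on replicate 1 and -0.90 on replicate 2. Of 8 epithelial genes 7 were higher on replicate 1 and 1, Krt7, was lower, with 3 above background on all arrays, and their summed signal was 5.47 and 0.656 on the high-calcium arrays, against 2.06 on the standard array, and 0.640 on the array of open diet.

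B-cell genes, 6 of 6 higher on replicate 1 and 2 above background, summed to 2.89 and 0.615 on the high-calcium arrays, against 0.719 on the standard array, and 0.522 on the array of open diet. T-cell genes, likewise 6 of 6 and 2, summed to 1.17 and 0.513 on the high-calcium arrays, against 0.574 on the standard array, and 0.321 on the array of open diet. All 8 mesothelial genes were higher on replicate 1 and 7 on both high-calcium arrays, with medians of 1.31 and 0.56. Neutrophil genes had medians of 0.89 and 0.14 over 8 genes, of which only S100a8 was above background, at -1.08 and -1.16.

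Of 8 fat cell genes 2 were lower on replicate 1 as deposited, and their summed signal was 99.96 and 94.4 on the high-calcium arrays, against 90.4 on the standard array, and 87.8 on the array of open diet. As multiples of the array median, each of the 8 was lower on replicate 1 than on the standard array. Adipoq stood at 368.1 and 556.6 in that order, and Lep at 124.2 and 143.4. Counts and sums of the cell type lists are on the deposited scale, whose scaling between arrays is not given. No gene of these lists sat at the lowest value of an array, and limma called 0 of their genes. The part of any of these cell types in the low signal of the 9 genes on replicate 1 was not tested.

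Genes outside the 9 were ranked by how near their profile over the 4 arrays, centred on its own mean, lay to the mean profile of the 9. The 10 nearest of 10459 genes above background were Lair1, Myo1e, Gpr137b, Cd84, S1pr2, Cd300lb, Cd200r1, Adgre1, Hmox1 and Qpct, at root mean square distances of 0.016 to 0.071 log2 units. The median distance of all ranked genes was 0.63. Lair1, an inhibitory collagen receptor of leukocytes, differed by -1.22 on replicate 1 and 0.22 on replicate 2. Adgre1, which encodes the macrophage antigen F4/80, differed by -1.05 and 0.26, and Hmox1, heme oxygenase 1, by -1.32 and 0.05. Of the 9 genes themselves Cd68 lay nearest to their mean at 0.070 and Lgals3 farthest at 0.44, and 970 other genes lay nearer than Lgals3. With 4 arrays a profile holds little beyond the place of replicate 1.

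**Figure D4:**
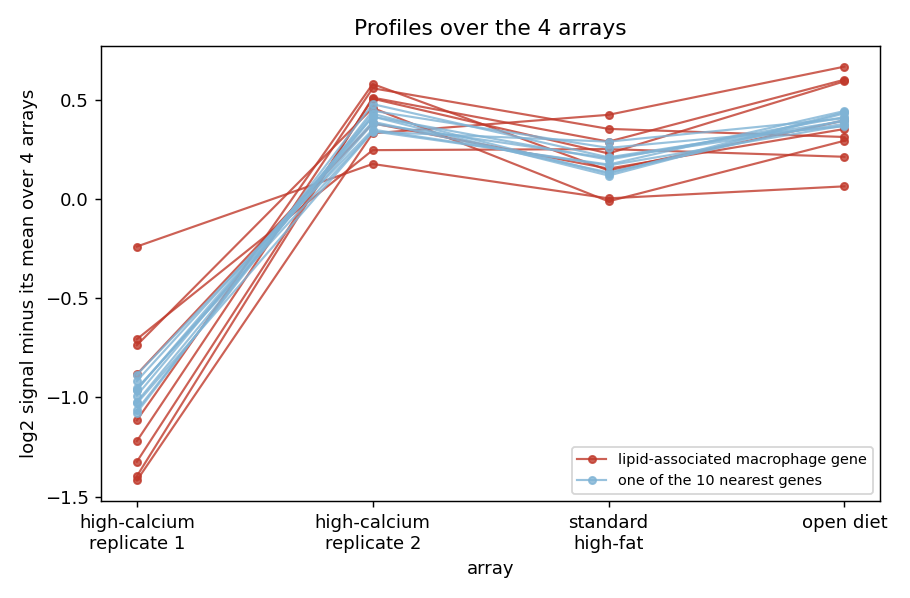
Log2 signal minus its own mean over the 4 arrays (y axis) by array (x axis), 1 line per gene, for the 9 lipid-associated macrophage genes in red and the 10 nearest other genes in blue. The mean of the 9 genes is -1.005 on high-calcium replicate 1, against 0.42, 0.20 and 0.39 for replicate 2, the standard array and that of open diet.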

How the data were processed

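Labelled RNA of whole fat pads was hybridised to 4 Affymetrix arrays of the mouse genome. The deposited intensities are linear signals, 1 per array for each of 45101 probe sets. Per the submitters' processing notes RMA was used, with no version given, yet the intensities lack the form of its log2 output, and every array bottoms out at its median divided by 100. The scaling between arrays is not given.

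Intensities were log2 transformed with no constant added. The platform annotation gave 1 symbol to 34958 probe sets, several to 932 and none to 9211, and 34754 could be tied to gene records by Entrez number, with 0 symbols changed.

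The 2 high-calcium arrays were compared with the 1 standard array by limma 3.58.1 (lmFit, eBayes; R 4.3.3), two-sided, adjusted over 18194 genes. The standard array was assumed to vary like the high-calcium ones, with 1 residual degree of freedom and 2.38 in all. The fit was tested on simulated data. The number of arrays limits the precision.

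The 9 genes and 21 other lists were chosen with earlier results of these data known. Named genes were the 9, the 3 largest differences among genes above background in a described list, any gene of the general macrophage and Trem2 signalling lists, and the 10 nearest in profile. Adipoq, Mrc1, Lpl, Fabp4, Krt7, Il1rn and Ptgs2 were added after their values were seen. Alternatives covered the choice of probe set, scaling, an offset of 0.1, a filter on dim genes, the prior and each high-calcium array left out. Figures used matplotlib 3.10.9 under Python 3.11.15.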

Additional observations from a re-analysis of the deposited data

Results flagged for a closer look

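The array of open diet entered no test. On it 7 of the 9 genes had more signal than on the standard array, which is what put them here. The log2 difference was 0.36 for Mmp12, 0.31 for Atp6v0d2, 0.31 for Itgax, 0.25 for Gpnmb, 0.24 for Trem2, 0.20 for Cd68 and 0.061 for Lgals3. None of the 9 was 1.5-fold away from the standard array. Neither count has a share of all genes beside it. The median log2 difference of the 9 genes was 0.24, against -0.018 for genes above background. Cd9 and Ctsk were at -0.039 and -0.041. Each value sets 1 array against 1 array and was not tested.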

How the results depend on the processing

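The direction of the mean difference held for each of the 9 genes under all 8 refits with both high-calcium arrays kept, and 0 of the 9 passed the adjusted threshold under any. The median of the 9 on replicate 1 was -1.21 after quantile normalization and -1.88 with arrays centred on their medians, where that of all genes was 0.00040 and -0.43, against -1.26 and 0.19 as deposited. All 9 stayed lower on replicate 1 except that Trem2 turned there where probe sets that can share transcripts were left out, because its dim probe set then stood for it. Genes lower on both high-calcium arrays numbered 1 in that setting and 1 after quantile normalization, against 2. Counted on 1 array alone, a count added after seeing the data, they ranged from 2 without replicate 1 to 9 without replicate 2, and the median difference from 0.22 to -1.26. Leaving out replicate 1 or replicate 2 gave 0.44 or -1.26 for Gpnmb, 0.47 or -0.72 for Itgax, 0.17 or -0.24 for Lgals3, 0.28 or -1.55 for Mmp12, 0.22 or -1.69 for Atp6v0d2, 0.23 or -1.04 for Cd68 and 0.20 or -1.57 for Ctsk, with no test possible on 1 array against 1. Over all genes limma called 0 as deposited, 6 lower with a trend and robust estimation, and 61 higher and 35 lower on median-centred arrays. The labels name no pairing between arrays, and with 1 standard array no paired analysis was possible.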

Other observations

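Markers of inflammatory macrophages were mostly dim, with 6 of 13 above background on all 4 arrays, and the counts and medians of this list rest largely on dim genes. Of the 13 genes 6 were lower on replicate 1 and 4 were higher on both high-calcium arrays, with medians of 0.025 and 0.21 and 0 called by limma. Ccl2, the monocyte chemokine, had signals of 1.55 and 1.87 on the high-calcium arrays, against 0.887 on the standard array, and 1.16 on the array of open diet. Saa3, an acute-phase protein, had 1.74 and 1.88 on the high-calcium arrays, against 3.17 on the standard array, and 2.96 on the array of open diet. Each of these genes differed in 1 direction on both high-calcium arrays. Il1rn, the interleukin 1 receptor antagonist, had the pattern of most of the lipid-associated genes, at -0.78 and 0.40 on replicates 1 and 2, and Ccl4 was at 0.025 and 0.88. The difference between this list and the 9 genes was not tested.

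Ptgs2, the prostaglandin synthase cyclooxygenase 2, had 10.5 and 0.0513 on the high-calcium arrays, against 0.230 on the standard array, and 0.00253 on the array of open diet. The inflammatory list summed to 14.9 on replicate 1, most of it from this gene, and to 5.50 on replicate 2, against 5.80 on the standard array. All 10 smooth muscle genes and 7 of 8 epithelial genes were higher on that array than on the standard one, and their part in this value was not tested.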
